A study of Homo sapiens with 54 samples.

Results

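The tRNA genes of chromosome 6 were taken from the RefSeq GRCh38.p14 gene table as the nuclear tRNA genes with a numbered symbol (such as TRA-AGC1-1: isotype, anticodon, number of the mature sequence, number of the gene copy) that start beyond the first 100 kb of the chromosome. The rule gave 149 of the 422 numbered nuclear tRNA genes of the table, and the other 273 lie on other chromosomes. Binding was read around them in T47D cells, an established human breast cancer line that expresses the oestrogen and progesterone receptors. The cells had 1 h of ethanol, the vehicle, or of R5020, a synthetic progestin that activates the progesterone receptor (PR). Chromatin was precipitated with 8 antibodies and sequenced (ChIP-seq). They recognise PR, histone H3 acetylated at lysine 27 (H3K27Ac), Brf1, Maf1, and POLR3A, POLR3C, POLR3G and POLR3GL of RNA polymerase III (Pol III). The 54 libraries form 18 groups of 3, with 48 ChIP libraries and 6 inputs, and each antibody and treatment has 1 deposited list of enriched regions, 16 lists in all. A tRNA gene was counted in a list when a region lay within 200 bp of it. Each list stands for 3 libraries and holds no value per library, so no spread between libraries could be given and no difference between treatments was tested. The depth of the libraries is unknown.

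Pol III makes tRNAs from short genes whose promoter lies inside the transcribed sequence. TFIIIC recognises that internal promoter and places TFIIIB, of which Brf1 is a subunit, just upstream of the start, and TFIIIB recruits the polymerase. POLR3A is the largest subunit and forms the catalytic centre with POLR3B, POLR3C belongs to the subcomplex used in initiation, POLR3G and POLR3GL are alternative forms of 1 subunit, and Maf1 binds the polymerase and represses it. H3K27Ac marks the chromatin of active promoters and enhancers. The short arm of chromosome 6 carries the largest cluster of tRNA genes in the human genome, in the same stretch as a large cluster of histone genes.

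The lists and labels set these limits. The PR lists held 6663 regions with vehicle and 173129 with R5020, and the Maf1 lists 3049 and 22683. The 2 H3K27Ac lists held 88870 and 112543 and the 2 POLR3A lists 688 and 1047, so that chance proximity differs by list. For 4 libraries titled R5020 the treatment tag names ethanol. They are 2 of POLR3C, 1 of POLR3G and 1 of POLR3GL. They were grouped by title, and what is said of R5020 for these 3 proteins holds only as far as the titles are right. H3K27Ac regions lay near all 7 luminal markers in both lists, near neither KRT5, KRT14 nor PTPRC, and near TP63 (fold 3.98 with vehicle and 2.77 with R5020) and COL1A1 (10.9 and 6.26). The fold enrichment and −log10 q of a region are the authors' values, and are used below to describe and rank regions within 1 list. Where folds of different lists stand side by side, they are given as values and not compared.

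POLR3A was found at most of the tRNA genes of chromosome 6 in both treatments. With vehicle, 127 of the 149 genes had a POLR3A region (85.2%, 95% Wilson interval 78.7 to 90.0, against 85.3% of all 422 tRNA genes). With R5020 the count was 125 (83.9%, 77.2 to 88.9, against 85.1% of all). Brf1 was at 107 genes with vehicle (71.8%, against 71.1% of all) and at 110 with R5020 (73.8%, against 73.2%). For these 2 proteins chromosome 6 and the other chromosomes could not be told apart. The difference in the share of genes with POLR3A was -0.113 percentage points with vehicle (95% Newcombe interval -7.66 to 6.6) and -1.82 with R5020 (-9.49 to 5.03), and for Brf1 it was 1.12 (-8.11 to 9.81) and 0.932 (-8.12 to 9.41). The latter turned to -2.36 within 1000 bp and to -0.956 with equal numbers of top regions. These intervals cover counting of genes only, and clustered genes are not independent.

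PR and Maf1 were found at few of the chromosome 6 genes, with R5020 and not with vehicle. The vehicle lists of these 2 are far shorter than their R5020 lists, with 6663 regions for PR and 3049 for Maf1. With vehicle, 0 of 149 genes had a PR region (2.13% of all 422 did), for which the Wilson interval reaches 2.51% and the limit of 3 counts 2.01%, and 0 of 149 had a Maf1 region (3.32% of all). With R5020, 19 genes had a PR region (12.8%, interval 8.32 to 19.1, against 25.4% of all 422) and 14 had a Maf1 region (9.4%, 5.68 to 15.2, against 22.3% of all). Both shares are below those of the tRNA genes on other chromosomes. PR lay near 88 of the 273 other tRNA genes (32.2%), a difference of -19.5 points (-26.7 to -11.3), and Maf1 near 80 of 273 (29.3%), a difference of -19.9 points (-26.7 to -12.2). The counts depend on the settings: PR was near 10 genes when the region had to overlap the gene and 44 within 1000 bp, and Maf1 near 6 with a −log10 q of at least 5. With equal numbers of top regions per antibody both counts were 0, and the differences from other chromosomes were -2.93 points (-5.67 to -0.0346) for PR and -0.366 (-2.05 to 2.17) for Maf1. No chromosome 6 gene had either protein with vehicle alone (0% of all for PR and 0.237% for Maf1), and a region with R5020 alone was seen at 23.2% of all tRNA genes for PR and 19.2% for Maf1.

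H3K27Ac and POLR3C were found less often on chromosome 6 in both treatments, and POLR3G and POLR3GL with R5020 only, the vehicle intervals of these 2 holding 0. Whether the difference from other chromosomes itself differed between treatments was not tested. H3K27Ac was near 38 of 149 genes with vehicle (25.5%, against 41% of all 422) and near 30 with R5020 (20.1%, against 37.7%). The differences from the other chromosomes were -23.9 points (-32.6 to -14.4) and -27.1 points (-35.3 to -17.9). Only 12 and 10 of the 38 and 30 genes were overlapped by an H3K27Ac region. POLR3C was near 18 genes with vehicle (12.1%, against 23.5% of all) and 27 with R5020 (18.1%, against 27.7%), differences of -17.6 points (-24.7 to -9.55) and -14.8 points (-22.7 to -6.09). POLR3G was near 68 genes with vehicle (45.6%, against 51.2% of all) and 62 with R5020 (41.6%, against 48.1%), differences of -8.57 points (-18.3 to 1.39) and -10 points (-19.6 to -0.069). Among genes with POLR3A in either treatment the R5020 interval for POLR3G held 0 (-10.1 points, -20.6 to 0.521). POLR3GL was near no chromosome 6 gene in either list (0% of all with vehicle, 2.37% with R5020), while 10 of the 273 other genes had a POLR3GL region with R5020, a difference of -3.66 points (-6.61 to -0.65). With vehicle none of the 422 genes had a POLR3GL region, so that interval could only hold 0.

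**Figure D1:**
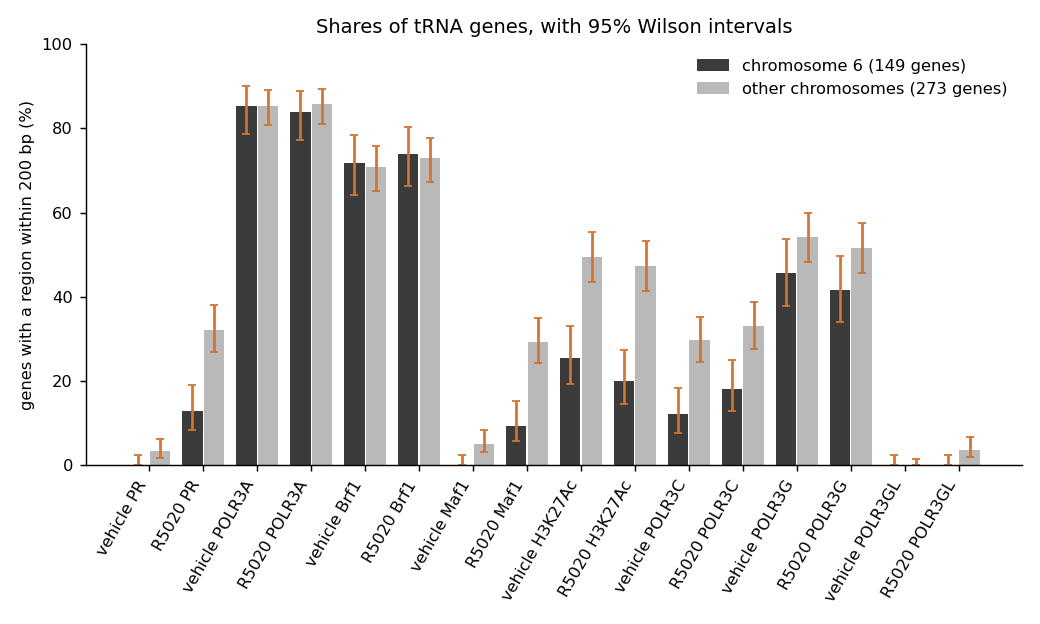
Share of tRNA genes with a region within 200 bp in each of the 16 lists, for the 149 genes of chromosome 6 and the 273 genes of other chromosomes, with 95% Wilson intervals. The POLR3A and Brf1 shares overlap between the 2 sets of genes, while the shares for PR and Maf1 with R5020 and for H3K27Ac in both treatments are lower on chromosome 6.

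Beside the H3K27Ac difference stands a split by acetylation. Among tRNA genes with an R5020 H3K27Ac region, PR was at 12 of 30 on chromosome 6 (40%) and at 79 of 129 elsewhere (61.2%), a difference of -21.2 points (-38.6 to -1.57). Among genes without one, PR was at 7 of 119 (5.88%) and 9 of 144 (6.25%), a difference of -0.368 points (-6.37 to 6.1). For Maf1 the shares were 11 of 30 (36.7%) and 79 of 129 (61.2%) with H3K27Ac, and 3 of 119 (2.52%) and 1 of 144 (0.694%) without. The Maf1 differences were -24.6 points (-41.4 to -4.78) and 1.83 points (-1.72 to 6.49). For both proteins the interval lay below 0 among acetylated genes and held 0 among the others, and the difference between the acetylated and the other genes was not tested. The acetylated genes of chromosome 6 and of other chromosomes were not alike in level. In the R5020 H3K27Ac list their regions had a median fold of 6.75 on chromosome 6 and 13.6 elsewhere (median percentiles 84.4 and 93.6). The split does not allow for this, so it does not compare genes at equal acetylation. Of genes with POLR3A in either treatment, 128 on chromosome 6 and 239 elsewhere, PR was at 19 and 88, a difference of -22 points (-30.1 to -12.7), and Maf1 at 14 and 80, a difference of -22.5 points (-30.1 to -13.8).

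POLR3G and Brf1 were found more often on chromosome 6 among genes without acetylation. Without R5020 H3K27Ac, Brf1 was near 80 of 119 chromosome 6 genes with R5020 (67.2%) and near 72 of 144 others (50%), a difference of 17.2 points (5.25 to 28.4). POLR3G was near 32 of 119 (26.9%) and 15 of 144 (10.4%), a difference of 16.5 points (7.1 to 26). Among the genes that also had POLR3A, Brf1 was near 80 of 98 on chromosome 6 (81.6%) and 72 of 111 elsewhere (64.9%), a difference of 16.8 points (4.7 to 28). These splits were chosen after the shares had been seen. The 50 differences computed in all, with no adjustment, include the unsplit genes. They also include R5020 H3K27Ac split by itself, where the outcome is fixed.

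**Figure D2:**
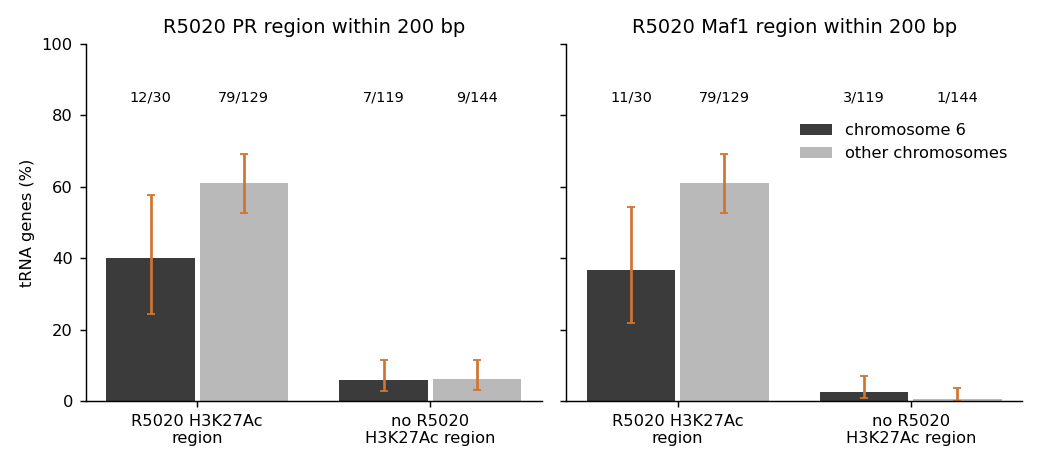
Share of tRNA genes with an R5020 PR region (left) or an R5020 Maf1 region (right) among genes with and without an R5020 H3K27Ac region, on chromosome 6 and on other chromosomes, with 95% Wilson intervals. PR reached 40% of the 30 acetylated chromosome 6 genes and 61.2% of the 129 acetylated genes elsewhere, against 5.88% and 6.25% of the genes without acetylation.

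The 2 treatments gave nearly the same set of Pol III genes on chromosome 6. POLR3A was near 124 genes in both treatments. With vehicle alone it was near TRI-AAT3-1 (fold 8.71), TRI-TAT2-3 (4.73) and TRL-CAA3-1 (4.69), and with R5020 alone near TRA-AGC12-3 (4.48). Each of these folds was low among the chromosome 6 genes of its list. By percentile in the whole list, the regions stood at 43.7, 22.7 and 22 with vehicle and 46.3 with R5020. Across all 422 genes a POLR3A region was present with vehicle alone at 1.9% and with R5020 alone at 1.66%. Brf1 was near 105 genes in both treatments, near TRS-AGA3-1 and TRA-AGC7-1 with vehicle alone (1.18% of all 422), and near TRM-CAT5-1, TRM-CAT5-2, TRS-GCT1-1, TRS-CGA2-1 and TRI-TAT3-1 with R5020 alone (3.32% of all). H3K27Ac was near 30 genes in both treatments and near 8 with vehicle alone (4.5% of all). None of the 149 had it with R5020 alone (1.18% of all). The 8 genes are TRQ-TTG3-2, TRP-AGG2-2, TRY-GTA1-1, TRY-GTA6-1, TRI-AAT8-1, TRS-CGA3-1, TRS-GCT5-1 and TRL-AAG2-2. POLR3C was near 11 genes with R5020 alone (6.64% of all) and 2 with vehicle alone (2.37%), and POLR3G near 2 with R5020 alone (0.711%) and 8 with vehicle alone (3.79%), with treatments as titled.

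Among the genes with POLR3A the folds of the authors covered a wide range. The vehicle POLR3A list gave the chromosome 6 genes folds of 4.69 to 58 with a median of 40.4, and the R5020 list gave 4.48 to 71.4 with a median of 46.7. The highest fold of the R5020 list, 71.4, was shared by 20 regions and seen at 10 members, so its top genes cannot be ranked among themselves. Of these members, TRA-CGC1-1 and TRI-AAT5-1 share 1 region, and TRF-GAA1-2 and TRE-CTC1-6 share another. Sharing is common: 20 members shared a region with another in each POLR3A list, and 22 in each Brf1 list. In the vehicle list 14 regions shared the highest fold, 58, of which 2 are at members, TRL-CAA1-1 and TRE-CTC1-7. TRR-ACG1-2 and TRV-CAC1-6, which share 1 region, and TRI-AAT5-2 followed at 57.8. Brf1 folds ran from 3.55 to 50.2 with vehicle (median 26.9) and from 4.99 to 88.4 with R5020 (median 53.3). The 88.4 belongs to 1 region shared by TRF-GAA1-2 and TRE-CTC1-6. A region shared by TRX-CAT1-7 and TRG-GCC2-3 had 87.3, as had that of TRR-CCG1-2. The highest R5020 H3K27Ac folds were at TRR-ACG1-2 and TRV-CAC1-6 (17, in 1 shared region) and TRI-TAT2-2 (15.7), over a median of 6.75. The summit of that shared region lay at 26538554, 1020 bp from the middle of TRR-ACG1-2 and 464 bp from that of TRV-CAC1-6. It lies beyond the 250 bases before the start of the neighbouring gene HMGN4 (26538116 to 26538365). The summit at TRI-TAT2-2 lay 386 bp from the gene middle.

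Brf1 and POLR3A did not cover the same genes at the low end. Of the 128 genes with POLR3A in either treatment, 16 had no Brf1 region in either treatment, and their POLR3A folds were 4.69 to 12.2 with vehicle (median 8.31, 15 genes) and 4.48 to 12.9 with R5020 (median 8.67, 13 genes). The other 112 had medians of 41.2 and 53. A Brf1 region without POLR3A was seen at 0 of the 149 genes.

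The remaining 21 genes had no POLR3A region and were in none of the 16 lists. They include 6 of the 26 genes between positions 26521208 and 26828299 (TRA-AGC14-1, TRA-AGC12-1, TRI-AAT7-1, TRA-AGC9-1, TRI-AAT7-2 and TRA-AGC14-2) and 4 of the 5 genes between 57800211 and 57856473 (TRI-AAT1-1, TRA-AGC24-1, TRA-AGC13-2 and TRM-CAT7-1). TRA-AGC12-3, the fifth of that group, had the POLR3A fold of 4.48 with R5020 given above. The others are TRV-CAC6-1, TRI-AAT9-1, TRR-TCT5-1, TRV-AAC4-1, TRL-AAG4-1, TRF-GAA6-1, TRF-GAA5-1, TRF-GAA4-1, TRL-AAG3-1, TRQ-TTG4-1 and TRA-CGC5-1. The 3 phenylalanine genes lie between 28763597 and 28823389. TRA-CGC5-1, placed at 185743, stands outside the position order in the gene table, and leaving it out changed no direction or call. How reads matching several places were handled is not known, and its part in the lack of regions at the 21 genes was not tested.

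**Figure D3:**
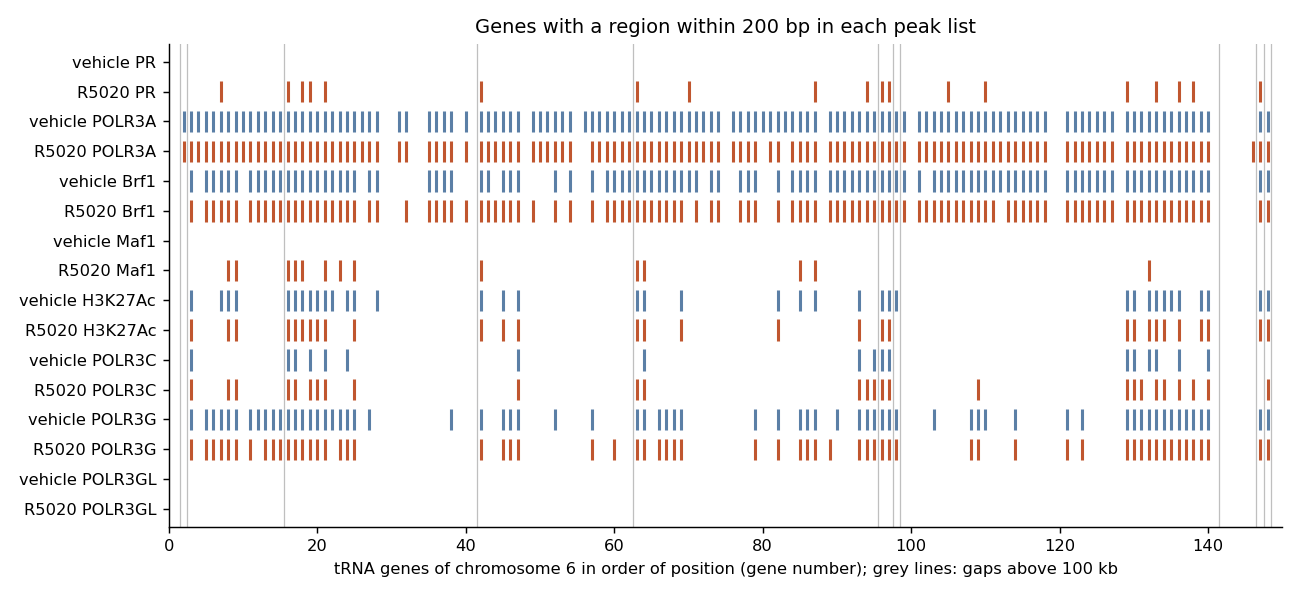
Presence of a region within 200 bp of each chromosome 6 tRNA gene in the 16 lists (blue ticks vehicle, red ticks R5020), with the genes in order of position and grey lines at gaps above 100 kb. POLR3A and Brf1 fill most of their rows, PR and Maf1 fill 19 and 14 places, and the 21 genes with no region leave gaps through all lists.

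By position, the genes form 1 large block. Gaps of more than 500 kb leave 139 genes in a block of 2.7 Mb, from TRX-CAT1-2 at 26286526 to TRL-AAG3-1 at 28989083, and 10 genes elsewhere on the chromosome. In the block, POLR3A was near 124 of 139 genes with vehicle and 121 with R5020, Brf1 near 105 and 108, PR near 18, Maf1 near 14 and H3K27Ac near 36 and 28. The share with PR in the block differed from that of the other 10 genes by 2.95 points (-27.8 to 13.5), which these few genes cannot resolve, and its sign turned within 1000 bp (-11.2) and with a block gap of 200 kb (-0.331). Within the block, gaps of more than 100 kb, a distance chosen after the positions had been seen, gave 7 groups.

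The groups differed in how many genes had PR, Maf1 and acetylation, and the counts are small. The first, 13 genes from 26286526 to 26331515, had vehicle POLR3A at 13, PR at 1, Maf1 at 2 and vehicle H3K27Ac at 4. The second, 26 genes from 26521208 to 26828299, had POLR3A at 20, PR at 4, Maf1 at 6 and H3K27Ac at 10. In this group stand 6 of the 21 genes that are in no list. The third, 21 genes from 27020346 to 27335062, had POLR3A at 19, PR at 1, Maf1 at 1 and H3K27Ac at 3, and the next, 33 genes from 27478812 to 27795932, had POLR3A at 31, PR at 4, Maf1 at 4 and H3K27Ac at 7. The last large group, 43 genes from 28474552 to 28989083, had POLR3A at 38, PR at 6, Maf1 at 1 and H3K27Ac at 9. The pair TRX-CAT1-7 and TRG-GCC2-3, at 27902493 to 27902978 and counted as 1 locus, had POLR3A, PR, H3K27Ac and Brf1 at both and Maf1 at neither, and the single gene TRS-GCT5-1 at 28213037 had POLR3A and, with vehicle, H3K27Ac but no PR or Maf1.

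**Figure D4:**
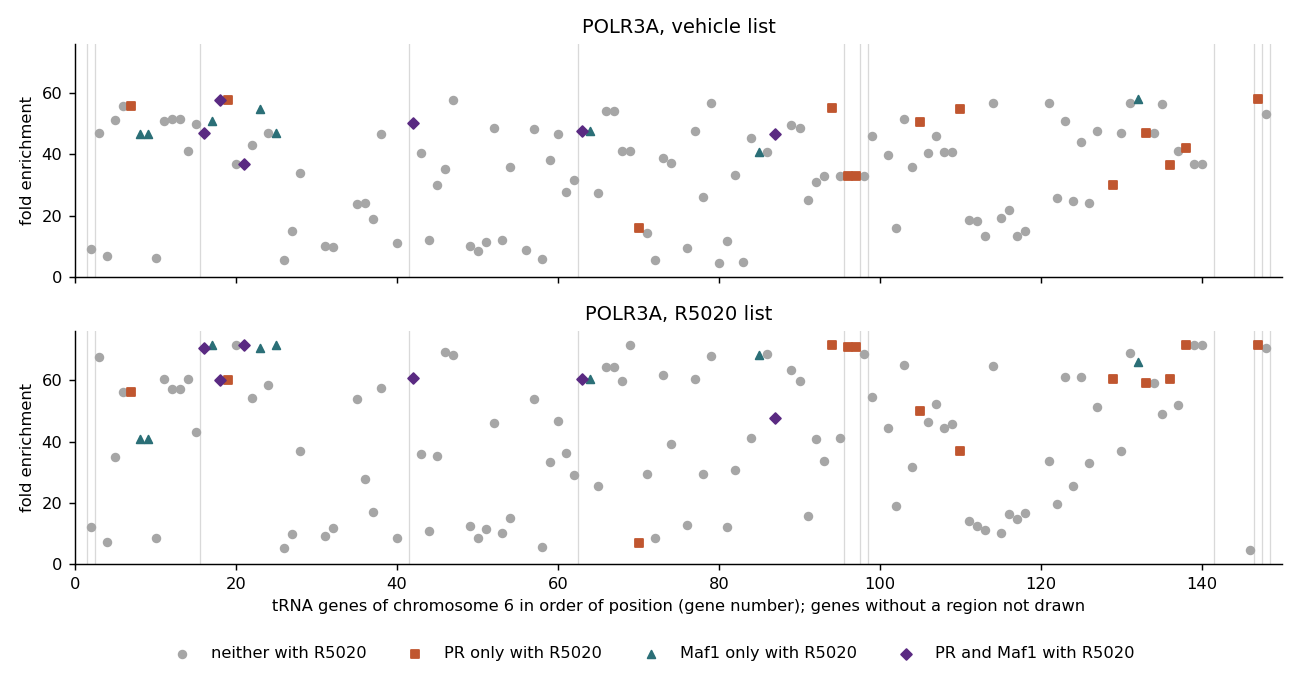
Authors' POLR3A fold enrichment at the chromosome 6 tRNA genes in order of position, with vehicle (top) and R5020 (bottom), with symbols for genes that had PR, Maf1, both or neither with R5020. Low and high folds stand side by side along the block, and the genes with PR or Maf1 have vehicle folds of 30 or more, except TRS-AGA3-1 at 16.1.

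The genes that are outside the block differ among themselves. TRE-CTC1-7 (125780247 to 125780318) had the tied top vehicle POLR3A fold of 58, Brf1 folds of 42.9 and 81.3, H3K27Ac in both treatments, and a PR region with fold 5.05 (125780378 to 125781210) that starts beyond the gene end and has its summit 546 bp from the gene middle. The same PR region covers all 250 bases before the start of the neighbouring gene NCOA7 (125780865 to 125781114). TRL-TAA1-1 at 144216547 had POLR3A folds of 53.2 and 70.6, Brf1 folds of 40.4 and 80.4 and no PR or Maf1. TRQ-CTG1-1 at 18836171 had POLR3A folds of 9.08 and 12.3 and no Brf1.

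PR regions near the 149 genes were low in the R5020 PR list. Their folds ran from 2.51 to 23 with a median of 4.86, at a median percentile of 38.1 of the list, while the PR regions near tRNA genes of other chromosomes stood at a median percentile of 58.8. Because 1 region can reach 2 genes, the 19 genes rest on 18 regions, and the region overlapped the gene itself at 10 of 19. The summit of the PR region lay a median of 224 bp from the middle of the gene, compared with 8 bp for POLR3A with vehicle, 9 bp for POLR3A with R5020 and 40 bp for Maf1. The largest PR fold, 23, was at TRL-CAG1-7, a leucine gene (26521208 to 26521290), whose region (26520743 to 26521435) stood at percentile 90.6 of the list with a −log10 q of 126. TRI-AAT5-1, an isoleucine gene (26554122), had a PR fold of 12.3 (region 26554048 to 26554510), and TRS-CGA3-1 one of 8.35, TRS-GCT4-1 one of 7.18, TRQ-TTG3-2 one of 7.07 and TRM-CAT3-2 one of 6.73. TRL-CAA1-2 at 5.58 and TRE-CTC1-7 at 5.05 are the other genes with a fold of at least 5. TRA-CGC2-1 (4.87) and TRQ-CTG6-1 (4.86) came next, among 11 genes with folds under that value.

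A pair of windows from RefSeq GRCh38.p14, each the 250 bases before a neighbouring gene's start, shows where PR regions near tRNA genes can reach. Capitals mark the bases inside the tRNA gene, and each window is written on the strand of the neighbouring gene. The first window, before LARRPM (chr6:27020307-27020556, minus strand), holds all 94 bases of TRI-TAT2-2 and shares 97 bases with its PR region (27020014 to 27020403, fold 3.81), which ends inside the tRNA gene. The summit of that PR region, at 27020193, lies outside the window. The second, before HMGN4 (chr6:26538116-26538365, plus strand), holds 11 bases of TRV-CAC1-6. The PR region of fold 3.55 (26537687 to 26538450) covers the whole window and the whole tRNA gene, and its summit lies in the window, 224 bp from the gene middle.
LARRPM window with TRI-TAT2-2: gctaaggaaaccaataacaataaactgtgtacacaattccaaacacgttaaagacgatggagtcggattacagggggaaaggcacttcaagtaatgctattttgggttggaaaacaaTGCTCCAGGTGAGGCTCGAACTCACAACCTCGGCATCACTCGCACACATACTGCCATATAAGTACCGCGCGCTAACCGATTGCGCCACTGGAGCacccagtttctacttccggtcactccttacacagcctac
HMGN4 window with TRV-CAC1-6: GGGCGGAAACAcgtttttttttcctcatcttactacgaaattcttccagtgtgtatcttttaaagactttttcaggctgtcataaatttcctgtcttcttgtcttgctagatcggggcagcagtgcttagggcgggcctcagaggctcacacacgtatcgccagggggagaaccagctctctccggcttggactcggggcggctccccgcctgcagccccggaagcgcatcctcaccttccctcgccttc
Neither window holds the hexamers TGTTCT or AGAACA of the hormone response element (each is the other's reverse complement), which occur in 12.4% of 35116 promoter windows of the same 250 bases. The full palindromic element, found in 0.327% of the windows, was in neither. With shares this low, absence from 2 windows does not tell whether the PR regions hold the element. The bases of the first PR region outside its window were not read. No tRNA gene has a window of its own in the promoter table. The internal promoter of TRI-TAT2-2, whose bases lie in the first window, was not examined.

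Maf1 lay nearer to the genes. Of its 14 regions 12 overlapped the gene, their folds ran from 2.84 to 5.53 with a median of 3.91, and their median percentile in the list was 39.2, against 48.7 for the other tRNA genes. TRT-AGT2-1, a threonine gene, had the highest Maf1 fold (5.53), followed by TRI-AAT5-1 (5.33) and TRS-AGA2-2 (4.57). At TRS-AGA2-2, a serine gene (27478812), the PR summit was at 27478870 and the Maf1 summit at 27478871, each 18 bp from the gene middle. POLR3G stood high in its own lists at the chromosome 6 genes, at a median percentile of 98.6 with vehicle and 99.7 with R5020, against 99.9 in both lists for the other tRNA genes.

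**Figure D5:**
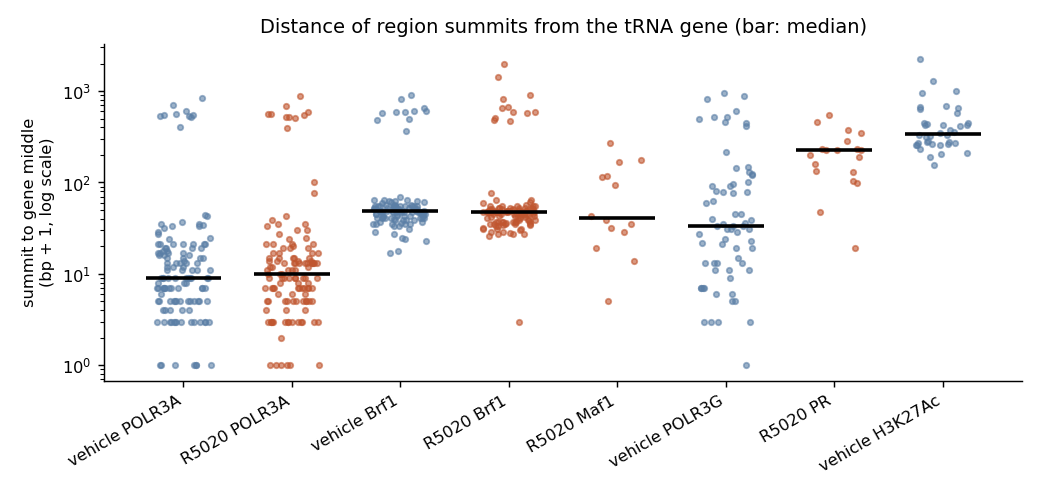
Distance from the summit of the authors' region to the middle of the tRNA gene (bp + 1, log axis) in 8 lists, with 1 point per chromosome 6 gene that had a region and a bar at the median. POLR3A summits lie at a median of 8 and 9 bp, Brf1 at 48 and 46 bp, Maf1 at 40 bp, PR at 224 bp and vehicle H3K27Ac at 336 bp.

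PR and Maf1 were found at overlapping sets of genes. Both were near 6 genes (TRL-CAG1-7, TRR-ACG1-2, TRI-AAT5-1, TRI-TAT2-2, TRS-AGA2-2 and TRS-CGA3-1), and their regions shared bases at 6 of 6. PR alone was near 13 genes (TRQ-TTG3-2, TRV-CAC1-6, TRS-AGA3-1, TRQ-CTG6-1, TRX-CAT1-7, TRG-GCC2-3, TRS-GCT4-1, TRA-CGC2-1, TRA-AGC2-1, TRL-CAA1-2, TRM-CAT3-1, TRM-CAT3-2 and TRE-CTC1-7). Maf1 alone was near 8 (TRS-TGA3-1, TRX-CAT1-3, TRT-AGT2-1, TRK-CTT2-4, TRA-AGC11-1, TRD-GTC2-6, TRI-AAT8-1 and TRL-CAA1-1). Maf1 was near 6 of the 19 PR genes (31.6%) and 8 of the 130 others (6.15%), a difference of 25.4 points (8.3 to 48). With a −log10 q of at least 5 the difference was 10.3 points and its interval held 0 (-0.226 to 35). The genes with neither number 122, of which 101 had POLR3A. Every PR gene and every Maf1 gene had POLR3A and Brf1 with vehicle.

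For 3 of the 6 genes with both proteins, the pair present in the most lists (TRL-CAG1-7 and TRI-AAT5-1, 12 each) and the gene of the LARRPM window, the values by list were as follows. TRL-CAG1-7 had folds of 46.8 and 70.6 for POLR3A, 50.2 and 60.5 for Brf1, 8.68 and 8.23 for H3K27Ac, 4.53 and 3.56 for POLR3C and 9.26 and 8.84 for POLR3G, with vehicle first and R5020 second, and with R5020 it had PR at 23 and Maf1 at 3.75. Its Maf1 region (26520590 to 26521051) lay beside the gene and not over it. TRI-AAT5-1 had 36.7 and 71.4 for POLR3A, 42.3 and 67.6 for Brf1 and 6.65 and 6.75 for H3K27Ac, with PR at 12.3 and Maf1 at 5.33 with R5020. Its POLR3A, Brf1 and H3K27Ac regions are shared with TRA-CGC1-1, so these folds are not its own. The vehicle POLR3A and R5020 Brf1 summits lay 602 and 652 bp from TRI-AAT5-1 but 18 and 32 bp from TRA-CGC1-1. The R5020 POLR3A and vehicle Brf1 summits lay 24 and 34 bp from TRI-AAT5-1. TRI-TAT2-2, an intron-containing isoleucine gene, had 50.2 and 60.6 for POLR3A, 30.1 and 59 for Brf1 and 19.8 and 15.7 for H3K27Ac, with PR at 3.81 and Maf1 at 3.24. In each of these genes PR and Maf1 were present with R5020 only, while Pol III, Brf1 and acetylation were present in both treatments. A fold in 1 list is not comparable with a fold in another, since the background and the number of regions differ.

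Acetylation with vehicle went with both proteins. PR with R5020 was near 14 of the 38 genes with vehicle H3K27Ac (36.8%) and 5 of 111 without it (4.5%), a difference of 32.3 points (17.8 to 48.4). Maf1 was near 13 of 38 (34.2%) and 1 of 111 (0.901%), a difference of 33.3 points (19.7 to 49.2). Within 1000 bp the PR difference was 61.3 points (44.9 to 73.2), and no PR or Maf1 gene was left to compare when each antibody's 2 lists were cut to the same number of top regions. The polymerase subunits split in the same way, R5020 POLR3C being near 22 of the 30 genes with R5020 H3K27Ac and 5 of 119 without, and R5020 POLR3G near 30 of 30 and 32 of 119. PR was near 17 of 68 genes with vehicle POLR3G and 2 of 81 without, and Maf1 near 14 of 68 and 0 of 81. The authors' folds for POLR3A were also higher at these genes, with medians of 47.1 (vehicle) and 60.3 (R5020) at the PR genes against 37.7 and 41.1 at the others, and 46.7 and 60.3 at genes with vehicle H3K27Ac against 35.7 and 36.4 without. The part of acetylation and of POLR3A level in these counts was not tested.

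At TRS-AGA3-1, a PR gene, the PR region of fold 3.55 (27532122 to 27532272) overlapped the gene, POLR3A had a fold of 16.1 with vehicle and 6.85 with R5020, and Brf1 had 6.64 with vehicle and no region with R5020. It is the only PR gene with no R5020 Brf1 region. Its PR region had a −log10 q of 4.87, under the alternative limit of 5, and stood at percentile 14.2 of the list. TRA-AGC7-1, which had no PR region, is the other gene with Brf1 under vehicle alone (fold 5.48). Its POLR3A folds were 18.3 with vehicle and 12.5 with R5020. Whether PR has a part in the values at TRS-AGA3-1 was not tested.

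By isotype, alanine genes were the most numerous (26), and 18 had POLR3A with vehicle, 2 had PR and 1 had Maf1. All 17 serine genes had POLR3A in both treatments, 4 had PR and 3 had Maf1. Of 14 isoleucine genes, 10 had POLR3A with vehicle and 8 with R5020, and PR was near 2 and Maf1 near 3. Of the 11 leucine genes 9 had POLR3A with vehicle, 2 had PR and 2 Maf1. Of the 11 glutamine and 11 arginine genes, 10 each had POLR3A in both treatments, with PR at 2 and 1 and Maf1 at 0 and 1. Threonine (9 genes), lysine (6) and tyrosine (4) had POLR3A at every gene with vehicle and PR at none, and 3 of the 6 phenylalanine genes had POLR3A. The 6 initiator methionine genes, written TRX, all had POLR3A, and 1 had PR and 1 Maf1. These counts are too few for a comparison of isotypes.

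Copies with the same name number carry the same mature tRNA sequence by the naming convention, so a name with several copies holds 1 mature sequence at several places. There are 22 such names with at least 2 members, holding 55 genes. POLR3A with vehicle was near every copy of 19 names and no copy of 3, and mixed in 0. With R5020 it was mixed for 2 names (TRA-AGC12 and TRI-TAT2), and Brf1 was mixed for 4 in each treatment. PR was near some copies and not others for 9 names, Maf1 for 8, and vehicle H3K27Ac for 11. Near-identical copies can share reads, and how such reads were handled is not known. The part of shared reads in the agreement of copies was not tested. The initiator methionine TRX-CAT1 has 6 copies, of which 6 had POLR3A (vehicle folds 27.7 to 56.8), 3 had vehicle H3K27Ac, 1 had PR (TRX-CAT1-7, fold 3.58) and 1 had Maf1 (TRX-CAT1-3, fold 3.55). TRS-AGA2 has 4 copies, all with POLR3A, and only TRS-AGA2-2 had PR (fold 3.06), Maf1 (4.57) and H3K27Ac (5.94 with vehicle and 5.99 with R5020). Members with a gene longer than 88 bases, the 11 that include the intron-containing tyrosine, isoleucine-TAT and leucine-CAA genes, had POLR3A at 11 with vehicle and 9 with R5020, Brf1 at 6 and 7, and PR at 2.

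The surroundings of the genes were of mixed kind. The chromosome holds 55 histone genes, and 3 of the 149 tRNA genes, TRX-CAT1-2, TRX-CAT1-7 and TRG-GCC2-3, lie within 10 kb of one. TRQ-TTG2-1, TRS-GCT4-1 and TRA-AGC3-1 lie inside the span of SCAND3. Of 6 tRNA genes within 5 kb of the end of a protein-coding gene, 3 had PR and 5 had vehicle H3K27Ac, against 16 and 33 of the 143 others. In the block the R5020 PR list had 180 regions, 66.6 per Mb against 56.1 per Mb over all chromosomes, and 5.05% of its bases lay within 200 bp of a PR region, while 17 of the 180 regions were at tRNA genes. The R5020 Maf1 list had 35 regions in the block, 14 of them at tRNA genes, and 0.847% of bases lay within 200 bp of one. The vehicle POLR3A list had 125 regions there and 114 of them were at tRNA genes.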

How the data were processed

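Per the submitters' processing notes, which name tools without versions or order, cutadapt, Bowtie2 and MACS2 were used with the hg38 build; how the 3 libraries of a group became 1 list is not given in the sources used here. The authors deposited, per region, a fold enrichment (a ratio over the caller's background), a −log10 q-value, a score and positions; the score was not used. The lowest −log10 q-value over the deposited lists was 1.30.

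Regions on the autosomes, X and Y were kept. RefSeq GRCh38.p14 gave gene positions. A gene had a region when the gap was at most 200 bp. Shares have 95% Wilson intervals and differences of shares 95% Newcombe intervals; both cover counting of genes only. The 16 differences between chromosome 6 and the other chromosomes, 1 per list, were not adjusted for number. Gene copies were compared by name number in place of the planned comparison of sequence, because the promoter table holds none of the genes. Genes were named by rule: the 10 highest R5020 PR folds, the 5 highest POLR3A folds per treatment and the 3 highest Brf1, Maf1 and H3K27Ac folds with R5020, genes whose POLR3A or Brf1 differed between treatments, genes without POLR3A, block ends, and copies mixed for PR. Other genes were named after their values were seen. The computations were tested on simulated data and used Python 3.11.15, numpy 2.4.6, pandas 2.3.3, scipy 1.17.1 and matplotlib 3.10.9. The genes, lists and alternatives were chosen with earlier results of these data known.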

Additional observations from a re-analysis of the deposited data

How the results depend on the processing

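Of 165 alternative values over 26 results, 148 were rated the same as the main value. They include every one counted by locus (142 loci on chromosome 6, 240 elsewhere) and every one without TRA-CGC5-1. A difference of shares was the same when its sign and call held. A count of genes was the same when equal to the main count or within a fixed ratio of it. For PR and Maf1 with vehicle this set 0 against 0. Counting only regions that overlap the gene gave 10 PR genes with R5020 in place of 19, 12 and 10 H3K27Ac genes in place of 38 and 30, and turned the vehicle H3K27Ac difference between the block and the other genes from 5.9 to -2.09 points. A distance of 1000 bp gave 44 PR genes, a Brf1 difference of -2.36 points with R5020 in place of 0.932, and a PR difference between block and other genes of -11.2 in place of 2.95. A −log10 q of at least 5 gave 6 Maf1 genes in place of 14, and a Maf1 difference by PR of 10.3 points (-0.226 to 35) in place of 25.4. Equal numbers of top regions per antibody gave 0 PR genes, 0 Maf1 genes, differences from other chromosomes of -2.93 for PR, in place of -19.5 and with the interval still below 0, and -0.366 for Maf1, a Brf1 difference of -0.956 and a PR difference by vehicle H3K27Ac of 0. A block gap of 200 kb gave a PR difference of -0.331. Without genes that have R5020 H3K27Ac, a split chosen after seeing the data, the difference from other chromosomes was -0.368 points for PR and 1.83 for Maf1. The overlap, q and equal-number settings leave fewer regions, the larger distance takes in more, and the block gap regroups the same genes. The cause of the shifts was not tested beyond that. No paired analysis was possible because each antibody and treatment has 1 list and no replicate columns, and for the same reason no replicate could be left out. Without counts the depth is unknown, and so is the handling of reads that match several places. A gene with no region is therefore not shown to lack the protein.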

Other observations

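The gene table lists 155 tRNA genes on chromosome 6, of which 6 have no numbered symbol. Of these 6, 1 had POLR3A in both treatments and Brf1 with R5020, and 0 had PR. Other Pol III genes served as a side view: of 13, 13 had POLR3A in both treatments (folds 19.5 to 58 with vehicle and 19.5 to 71.1 with R5020), 2 had PR with vehicle and 9 with R5020, and 1 had Maf1 with vehicle and 5 with R5020.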
